A study of Mus musculus with 6 samples.

Results

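Expression of 7 genes that encode proteins of the myelin sheath, Mbp, Cnp, Mag, Mog, Mobp, Cldn11 and Gpm6b, was compared between WT and Mettl14 conditional knockout (cKO) mice. The members were taken by gene symbol from the transcript tables of all 6 libraries and make up 7 of 24411 genes and 25 of 35034 transcripts. The series concerns the part that m6A, a methyl mark on adenosines in RNA, plays in moving neuronal mRNA out of the cell body. RNA was taken from the corpus callosum, the axon tract between the cortical hemispheres, of B6 mice on postnatal day 4, with 3 WT and 3 cKO libraries. The tract was cut out by hand from frozen sections 60 µm thick, so each library holds axons together with the glia that lie among them. Mettl14 is a subunit of the complex that writes m6A. The promoter that drives its deletion is not given in the sources used here. Whether the libraries of a group stem from different animals is not stated in the labels, so a p-value here weighs a difference only against the variation among these 6 libraries.

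Oligodendrocytes, the myelin-forming glia of the brain, wrap axons in layers of their own membrane. Myelin basic protein (Mbp) holds the cytoplasmic faces of these layers together. The enzyme and scaffold protein CNPase (Cnp) keeps cytoplasmic channels in the sheath open, Cldn11 forms the tight junctions between layers, and Mag faces the axon at the innermost layer. Mog lies on the outer surface of the mature sheath and Mobp is a further basic protein of compact myelin. Both are known as late genes of the series of events by which a sheath forms. Gpm6b is a proteolipid of the cell membrane that neurons and precursor cells make as well.

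Total expected counts, the estimated numbers of fragments per library, ranged from 670462 to 1268430. Both replicate 2 libraries were deeper than the others and had shorter fragments, with means of 304.3 and 292.7 bases against 332.4 to 350.5. All libraries differed from each other by more than counting error. Levels are given as counts, as CPM (counts scaled to library size by TMM) to compare libraries, and as TPM (scaled to transcript length) to compare genes. Mettl14 itself had 11, 8 and 5 counts in WT replicates 1 to 3 and 2, 7 and 2 in cKO, too few to check the labels closely. Xist, the RNA that coats an inactive X, was at 0 counts in every WT library and at 2970, 2323 and 4618 in cKO. The genotype and the presence of Xist RNA thus cannot be told apart.

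The myelin genes split into those near or at 0 in cKO and Gpm6b, which was read in every library. Mbp and Cnp fell by more than any replicate spread, Cldn11 and Mag had counts in every WT library and none in cKO, and Mog and Mobp were almost unread in either genotype. Together the 7 genes took 0.421%, 0.247% and 0.363% of the counts in WT replicates 1 to 3 and 0.0979%, 0.0737% and 0.151% in cKO. Of the 7 genes, 3 had enough counts to be tested (Mbp, Cnp and Gpm6b), and 2 of these were called lower by edgeR's quasi-likelihood test, at an adjusted p (Benjamini-Hochberg) below 0.05. Both of these passed the filter on low counts through their WT libraries alone. Over all genes 25 of 5918, or 0.422%, were called lower. The called pair had groups that did not overlap, as 9.45% of the tested genes had in this direction. In 4 of the 7 (Mbp, Cnp, Cldn11 and Mag) every WT library lay above every cKO library, as was so for 9.66% of the 10248 genes with at least 10 counts over the 6 libraries. In bulk tissue, fewer cells of a type and less RNA per cell cannot be told apart.

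**Figure D1:**
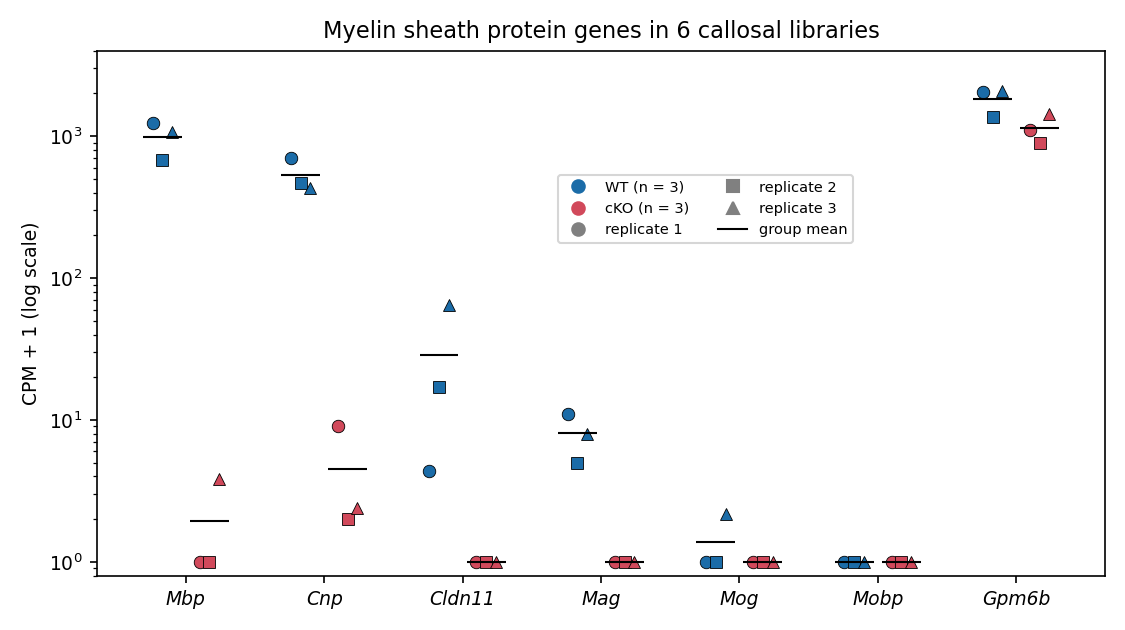
Level of each of the 7 genes in each library, as CPM + 1 on a log axis; blue points are WT, red points cKO, the shape gives the replicate number and each line is a group mean (n = 3). Mbp and Cnp lie above 400 CPM in all WT libraries and below 10 in all cKO libraries, Cldn11 and Mag are at 0 in cKO, and the Gpm6b groups overlap.

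Mbp (chromosome 18, 82475091 to 82585637, GRCm38) was the most abundant of the 7 genes per length in WT. It had 1101, 841 and 917 counts in WT replicates 1 to 3 and 0, 0 and 2 in cKO. All 3 WT libraries were high, at 1237, 676 and 1067 CPM, and the groups were far apart. As a level per length, Mbp stood at 969, 558 and 776 TPM in WT, rank 213 among the 24411 genes by mean TPM, and at 0, 0 and 2.29 TPM in cKO. Its level was 993 ± 288 CPM in WT and 0.943 ± 1.63 in cKO (SD, n = 3), a ratio of pooled counts of 1170 (95% counting interval 324 to 9662; edgeR quasi-likelihood, Benjamini-Hochberg adjusted p = 0.0147). The call was lost when WT replicate 1 or 3 was left out (adjusted p = 0.119 and 0.116), when cKO replicate 1 or 2 was (0.12 and 0.0677), without both replicate 2 libraries (0.142) and with the replicate number as a block (0.111), while the log2 fold change stayed between −12.88 and −8.98 in all 18 alternatives.

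One Mbp locus makes 2 families of mRNA. The classic forms start downstream and encode the proteins of the sheath, while the upstream start gives the golli forms, which are found in immune cells and neurons as well. In WT, the downstream start took 94.9%, 94.1% and 94.6% of the Mbp counts in replicates 1 to 3. The upstream start took the other 5.1%, 5.93% and 5.42%, all of them in NM_010777, which encodes 250 residues, and the second golli form, NM_001025245, was at 0 in every library. The split between the starts was thus nearly the same in the 3 WT libraries. In cKO, 1 of the 2 counts was in a downstream form (NM_001025258) and 1 in the upstream form (NM_010777), both in replicate 3. Pooled over the libraries, the upstream form had 156 WT counts and 1 cKO count, a ratio of 128 (95% counting interval 22.6 to 5073), so at this depth both families were nearly unread in cKO.

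Among the classic forms, exons are included or skipped to give proteins of different size. The exon of 78 bases (82561778 to 82561855), whose inclusion is typical of early oligodendrocytes, was in 17.3%, 21.8% and 24.6% of WT Mbp counts. The exon of 123 bases (82578936 to 82579058), which adds to the length of the larger proteins, was in 68.7%, 50.3% and 51.9%. The most counted forms were NM_001025259, of 128 residues, at 18.9%, 40.4% and 42.7%, and NM_001025258, of 158 residues, at 34.6%, 16.7% and 16.9%. The shorter of them led in WT replicates 2 and 3 and the longer in WT replicate 1. RSEM divides reads among overlapping transcripts by estimate, so the shares of single forms are less certain than those of the starts.

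**Figure D2:**
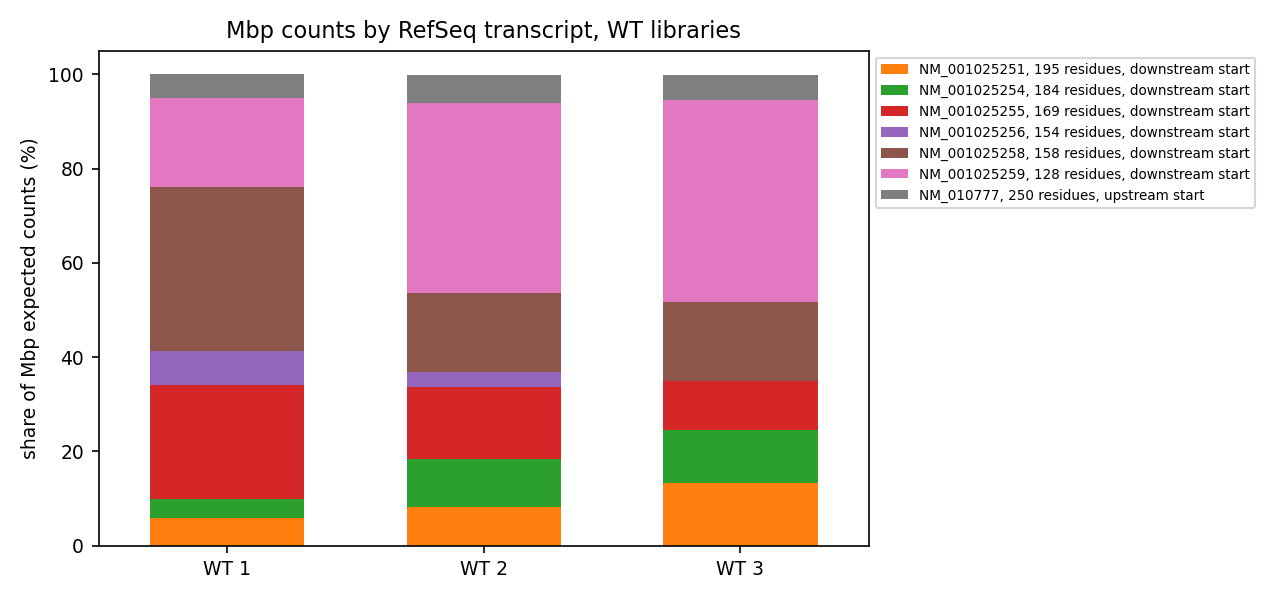
Share of the Mbp expected counts (percent, vertical axis) that each RefSeq transcript took in the 3 WT libraries, with the length of its protein in the legend. The upstream start, in grey, holds 5.1% to 5.93% in each library, while the forms of 158 and 128 residues change places between WT 1 and the other libraries.

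Single transcripts were also tested, with 14 of the 25 past the filter and 3 called lower, where 28 of all 6715 tested transcripts, or 0.417%, were. In 10 of the 14 every WT library lay above every cKO library, against 9.99% of all tested transcripts. However, the Mbp and Cnp forms and the Gpm6b form NM_001177957 passed the filter through their WT counts alone. Both called Mbp forms were downstream ones. NM_001025259 had 940 counts over the WT libraries and 0 over cKO, at least 256-fold lower (adjusted p = 0.0447), and NM_001025258 had 676 and 1 (adjusted p = 0.0484). The other 4 tested Mbp forms missed the threshold, with adjusted p between 0.0561 and 0.0703, although each had at most 1 count in cKO. Limma-voom called 0 of the member transcripts (9 at an unadjusted p below 0.05) and DESeq2 called 8. Without any 1 of the 6 libraries, edgeR called 0 member transcripts, with 10 to 12 of them at an unadjusted p below 0.05.

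Cnp (chromosome 11, 100574909 to 100591875) was the third most abundant member per length. It had 625, 581 and 369 counts in WT replicates 1 to 3 and 6, 1 and 1 in cKO. Every WT library was high and every cKO library was near 0, with replicate 1 the highest in both groups. The level was 533 ± 148 CPM in WT and 3.49 ± 3.97 in cKO (SD, n = 3), which put the log2 fold change at −7.23 with an SE of 0.89 (edgeR adjusted p = 0.0211). Per length it stood at 476, 323 and 272 TPM in WT (rank 432) and at 4.8, 0.6 and 1.12 in cKO. Mbp exceeded Cnp 2.03, 1.73 and 2.85 times in TPM in the 3 WT libraries. The Cnp call rests on all 6 libraries: without WT replicates 1 to 3 the adjusted p was 0.158, 0.076 and 0.14, and without cKO replicates 1 to 3 it was 0.0732, 0.0799 and 0.0643. Without both replicate 2 libraries it was 0.156 (log2 fold change −6.83), and the call was also lost with the replicate block or a term for replicate 2. The gene spans of Cnp and Dnajc7 overlap. Whether their exons do was not checked, and reads of shared stretches cannot be told apart without strand.

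Of the 2 Cnp transcripts in the files, NM_009923 took 84.9%, 59.6% and 100% of the Cnp counts in WT, and NM_001146318 took 15.1%, 40.4% and 0%. The shares differed widely among WT libraries. Both identifiers matched 1 and the same annotated transcript, so their structures were not told apart and the shares cannot be read as those of separate forms. NM_009923 was called lower (log2 fold change −6.95, SE 0.97, adjusted p = 0.0458). NM_001146318 was not tested and had 330 counts over WT and 0 over cKO, at least 90.0-fold lower.

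Cldn11 (chromosome 3, 31149920 to 31164326) had 3, 20 and 55 counts in WT replicates 1 to 3 and 0 in every cKO library. The WT libraries differed widely among themselves, from 3.37 to 64.0 CPM, and the lowest was just at the floor of 3 counts that a reading of 0 allows. Pooled, Cldn11 was at least 21.3-fold lower in cKO, and an exact two-sided permutation test over libraries gave p = 0.1, the smallest p that 3 against 3 allow. Cldn11 has 3 exons, and genes of at most 3 exons were often unread in these libraries. Of the 368 such genes with a mean of at least 20 CPM, 44.3%, 12.8% and 37.8% had 0 or 1 count in WT replicates 1 to 3 and 20.7%, 5.98% and 35.6% in cKO, against 0.734% to 3.89% of the 4907 genes with more exons. The part of this loss in the Cldn11 values was not tested.

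Mag (chromosome 7, 30899175 to 30914922) had 9, 5 and 6 counts in WT replicates 1 to 3 and 0 in every cKO library. The WT libraries were alike and low, at 7.04 ± 3.05 CPM (SD, n = 3) or 4.55 ± 1.96 TPM, rank 7035 by mean TPM. Pooled, Mag was at least 5.45-fold lower in cKO (exact permutation p = 0.1). Cldn11 and Mag both lay below the filter on low counts and were not in the edgeR test.

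Mog (chromosome 17, 37010740 to 37023398) had 1 count in WT replicate 3 and 0 in the other 5 libraries. Mobp (chromosome 9, 120149742 to 120181488) had 0 counts in all 3 of its transcripts in all 6 libraries. A count of 0 allows up to 2.41 to 4.24 CPM per library, so at this depth no difference between the genotypes could be seen in either gene. In WT, the order by TPM was thus Mbp, Gpm6b, Cnp, Cldn11, Mag, Mog and Mobp. Mbp exceeded Gpm6b in each WT library, by 1.25, 1.04 and 1.09 times, and their means of 768 ± 205 and 676 ± 123 TPM did not differ beyond their spread.

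Cnp, Mag and Mog share a short sequence just before their starts. It is the core recognised by MYRF, the transcription factor that switches on myelin genes in oligodendrocytes. The stretches before the most upstream annotated start are shown to place it, on the gene's own strand, 5′ to 3′, with the core in capitals. They come from RefSeq (GRCm38.p6), at chr11:100574689-100574903 (plus strand) for Cnp, chr7:30914923-30915172 (minus strand) for Mag and chr17:37023399-37023648 (minus strand) for Mog.
Cnp: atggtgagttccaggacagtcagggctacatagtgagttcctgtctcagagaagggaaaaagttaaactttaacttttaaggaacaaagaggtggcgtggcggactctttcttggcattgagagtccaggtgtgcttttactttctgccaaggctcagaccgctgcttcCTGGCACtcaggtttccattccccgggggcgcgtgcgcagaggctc
Mag: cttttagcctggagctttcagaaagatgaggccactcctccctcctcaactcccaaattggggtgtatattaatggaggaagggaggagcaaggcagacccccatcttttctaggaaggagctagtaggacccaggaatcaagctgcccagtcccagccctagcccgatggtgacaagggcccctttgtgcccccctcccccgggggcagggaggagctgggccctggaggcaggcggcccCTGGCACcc
Mog: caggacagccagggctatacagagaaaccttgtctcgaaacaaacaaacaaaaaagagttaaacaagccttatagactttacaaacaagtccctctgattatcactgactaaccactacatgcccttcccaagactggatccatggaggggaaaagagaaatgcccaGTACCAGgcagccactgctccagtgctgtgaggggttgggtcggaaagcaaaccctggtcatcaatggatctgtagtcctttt

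Mbp was not searched, and Gpm6b was searched only before its upstream start. The downstream start of Gpm6b, which took 23.8% to 50.6% of its counts by library, was not. The search was for CTGGCAC or CTGGTAC on both strands; in Mog the core lies on the other strand and reads GTACCAG. Its first base is 46 bases before the start in Cnp, 9 in Mag and 83 in Mog. The letters were not in the windows of 250 bases read for Cldn11, Mobp and Gpm6b, nor in the window before the most downstream Mag start. Of 32536 RefSeq promoter windows of that length, 5.94% hold them. The core shared by SOX factors (ACAAAG or ACAATG, both strands) was in 25.0% of the windows. It occurred 6 times before Mobp, 1 time each before Cnp, Mag and Gpm6b, and was not found before Mog and Cldn11. A match is a run of letters and not a measured binding site.

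Gpm6b (chromosome X, 166238943 to 166389033) was the only member read at a high level in both genotypes. It had 1817, 1686 and 1777 counts in WT replicates 1 to 3 and 828, 890 and 1010 in cKO. In CPM the values were 2041, 1354 and 2069 in WT and 1113, 891 and 1429 in cKO. All cKO libraries but replicate 3 lay below all WT libraries, and cKO replicate 3 lay above WT replicate 2, so the groups overlapped. The mean was 1821 ± 405 CPM in WT and 1144 ± 270 in cKO (SD, n = 3). The log2 fold change of −0.67 (SE 0.27) did not pass the test (edgeR adjusted p = 0.381). Per length it was 676 ± 123 TPM in WT and 466 ± 188 in cKO, rank 248 and 332. The fold change stayed between −0.94 and −0.52 over 18 alternatives, none of which brought it past the threshold (adjusted p from 0.137 to 0.718). Gpm6b overlaps Ofd1, as Cnp does Dnajc7, and the part of Ofd1 reads in its counts was not tested.

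The level of Gpm6b was also set against the sum of the other 6 genes. Summed, these 6 stood at 1952, 1162 and 1569 CPM in WT replicates 1 to 3, or 95.7%, 85.8% and 75.9% of the Gpm6b level. In cKO they stood at 8.07, 1.001 and 4.24 CPM, or 0.725%, 0.112% and 0.297%. On the log2(CPM + 1) scale, Gpm6b exceeded their sum by 0.228 ± 0.167 in WT and by 7.94 ± 0.938 in cKO (SD, n = 3). The groups did not overlap, and the difference was 7.72 (exact two-sided permutation p = 0.1, the smallest p possible). Most of the 6-gene sum is Mbp and Cnp, so this difference restates their low cKO counts and is no separate support. Gpm6a, the neuronal relative of Gpm6b, was at 2124, 1534 and 1935 CPM in WT and 2641, 2165 and 1580 in cKO, a log2 fold change of 0.19 (SE 0.24, adjusted p = 0.843) with groups that overlapped. Gpm6b is X-linked and the cKO libraries were the ones with Xist; its part in the Gpm6b values was not tested.

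Gpm6b mRNAs differ at their coding ends, and the shares of these ends are described here by library. Some transcripts include an exon of 91 bases (166385391 to 166385481) that carries a stop codon, and others skip it and read on into the last exon, which gives another C-terminus. The coding part of each end is shown from the GENCODE M21 annotation (GRCm38, plus strand), with the stop codon in capitals. The early stop lies at chrX:166385391-166385471, after 26 codons of the exon, and the other end at chrX:166386952-166387101, after 49 codons.
Early-stop exon: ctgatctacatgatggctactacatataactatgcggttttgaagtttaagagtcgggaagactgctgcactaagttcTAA
Last exon: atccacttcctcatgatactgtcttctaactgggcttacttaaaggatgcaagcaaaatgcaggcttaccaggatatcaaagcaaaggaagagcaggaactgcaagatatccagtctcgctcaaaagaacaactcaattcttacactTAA

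Transcripts that skip the early-stop exon (NM_001177955, NM_001177958 and NM_023122) took 24.7%, 25.8% and 19.2% of Gpm6b counts in WT replicates 1 to 3. They took 47.4%, 54.2% and 43.4% in cKO, so all cKO libraries lay above all WT libraries, with means of 48.3% ± 5.46 and 23.2% ± 3.53 (SD, n = 3). The same order held between the replicate 2 libraries alone. Forms that end at the early stop were at 1537, 1005 and 1671 CPM in WT and 586, 408 and 809 in cKO, also without overlap. Forms that skip it were at 504, 349 and 397 CPM in WT and 527, 483 and 620 in cKO, where the groups overlapped. As RSEM divided the reads, the gap in CPM thus lay in the early-stop forms. The level of the exon-skipping forms was 417 ± 79.0 CPM in WT and 543 ± 69.9 in cKO. That division among overlapping forms is an estimate, and single forms varied widely within WT. NM_023122, for 1, took 4.71%, 0.0688% and 18.5% in WT replicates 1 to 3. These classes were formed after the transcript values had been seen, so the shares are a description with no test. Of the 2269 transcript shares compared across all genes, 14.5% did not overlap between the groups.

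Most early-stop counts were in forms whose last exon runs on unspliced from the early-stop exon for 3598 bases (NM_001177961, NM_001177956 and NM_001177959). These took 67.4%, 63.1% and 69.1% of Gpm6b counts in WT and 44.3%, 43.8% and 47.3% in cKO. Forms that splice the early-stop exon to the last exon took 7.93%, 11.1% and 11.7% in WT and 8.37%, 2.0% and 9.36% in cKO, with overlap. The upstream start of Gpm6b took 76.2%, 62.6% and 64.9% in WT and 66.2%, 49.4% and 71.8% in cKO, again with overlap.

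**Figure D3:**
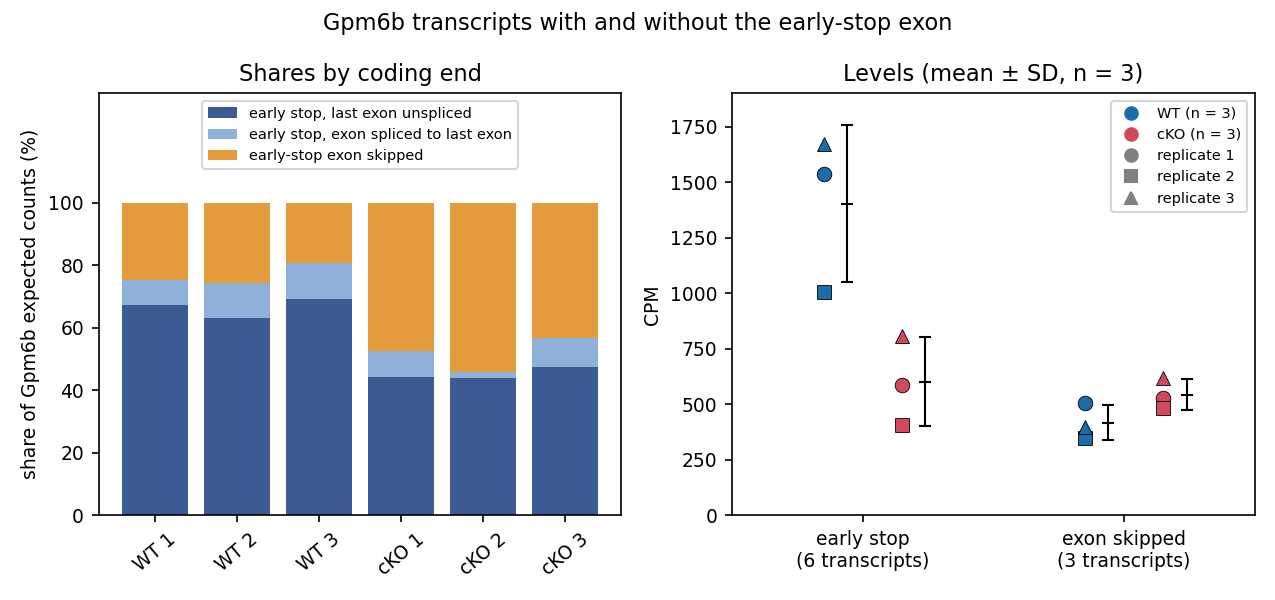
Left, share of Gpm6b expected counts (percent) in each library by coding end; right, CPM of the early-stop and exon-skipping forms in each library, with mean ± SD (n = 3). The orange share is 19.2% to 25.8% in WT and 43.4% to 54.2% in cKO, and on the right the early-stop forms separate by genotype while the exon-skipping forms overlap.

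Shares of single Gpm6b transcripts were tested over libraries, with 9 tests. NM_001177958, an exon-skipping form, took 8.91% ± 8.19 in WT and 29.9% ± 12.2 in cKO (SD, n = 3; exact permutation p = 0.1, adjusted p = 0.3). NM_001177957 and NM_001177960, both early-stop forms, had smaller shares in cKO without overlap (exact p = 0.1 and adjusted p = 0.3 each). NM_001177961, the most counted form, took 58.7% ± 10.9 in WT and 45.1% ± 1.82 in cKO (exact p = 0.2, adjusted p = 0.36). No share can pass at 3 against 3. In the test of levels, edgeR called 0 of the 7 tested Gpm6b transcripts (3 at an unadjusted p below 0.05). DESeq2 passed 1 of them, NM_001177957, which got past the filter on low counts through WT alone, and limma-voom 0.

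Of 27 other genes of myelinating oligodendrocytes 11 were tested and 4 fell, while the other 7 did not pass. The log2 fold changes of the 11 had a median of −1.70, against 0.07 over all tested genes. Bcas1, Myrf, Enpp6 and Plekhb1 passed the filter on low counts through WT alone, which bears on that median and on its sign. Bcas1, a marker of newly forming oligodendrocytes, was counted 924, 854 and 719 times in WT and 0, 1 and 0 in cKO (adjusted p = 0.00664). Myrf was counted 21, 19 and 17 times in WT and 0 in cKO, at least 15.5-fold lower (adjusted p = 0.0361). Enpp6, a choline phosphodiesterase of early oligodendrocytes, was counted 13, 26 and 12 times in WT and 0 in cKO, at least 13.9-fold lower (adjusted p = 0.0403). The deacetylase Sirt2 fell by 2.44 on the log2 scale (SE 0.37, adjusted p = 0.0397) and was still read at 153, 302 and 149 CPM in cKO. The lipid enzymes of myelin were low already in WT. Fa2h had 1, 26 and 0 counts in WT replicates 1 to 3 and 0 in cKO, so its groups overlapped. Ugt8a had 9 counts over WT and 1 over cKO. Opalin, Ermn, Gjb1, Mal, Nkx6-2, Aspa, Omg and Prr18, several of which mark the mature sheath, were at 0 in all 6 libraries, as Mobp was. Ermn has 3 exons, and Gjb1, Omg and Prr18 have 2 each, so they belong to the genes of few exons that were often unread. The part of that loss in their values was not tested.

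The factors of the lineage were thinly read. Sox10 had 2 counts over WT and 0 over cKO, and Olig2 had 12 and 2. Olig1 was counted 1719, 1637 and 1595 times in WT and 706, 625 and 0 in cKO, so its cKO libraries differed widely, and its log2 fold change of −1.70 did not pass (adjusted p = 0.724). Olig1 has 1 exon and Olig2 has 2, as have Gpr37l1 and Neurod2, so they belong to the genes of few exons that were often unread; the part of that loss in their values was not tested. Of 9 markers of oligodendrocyte precursors 6 were tested (median −4.07) and 2 fell. Gpr37l1, Matn4 and Sox6 passed the filter through WT alone, which bears on that median. Pdgfra, the growth factor receptor of these cells, fell by 5.39 (SE 0.49, adjusted p = 0.0114), and Gpr37l1 was counted 361, 342 and 329 times in WT and 0 in cKO, at least 281-fold lower (adjusted p = 0.0206). Ptprz1 was at −1.65 (SE 0.33, adjusted p = 0.115), and Matn4 had 158 counts over WT and 0 over cKO (adjusted p = 0.118). Schwann cells, the myelin-forming glia of nerves outside the brain, left little sign. Of their 8 genes 0 had enough counts to be tested, 5 were at 0 in all libraries, Prx among them, and their summed level was 1.12 to 5.82 CPM in WT and 1.35 to 5.01 in cKO.

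Genes of proteins that carry or control myelin mRNA had values of both signs. All 12 genes of this list were tested, and edgeR and limma-voom called 0 (5 at an unadjusted p below 0.05), while DESeq2 called 4. Their median log2 fold change was 0.26. Fmr1, the RNA-binding protein FMRP, was at 2.50 (SE 0.62, adjusted p = 0.19), with 37.1, 17.7 and 23.3 CPM in WT and 88.7, 112 and 241 in cKO. Qk, which binds myelin mRNA in oligodendrocytes, was at −2.03 (SE 0.65, adjusted p = 0.266), with 156, 79.5 and 87.3 CPM in WT and 32.3, 10.01 and 36.8 in cKO. In both genes the groups did not overlap, as was also so for Fyn and Rtn4. Of the 12 genes, 2 had every WT library above every cKO library and 4 had the reverse. Of all 24411 genes, 947 had every cKO library above every WT library, as Fmr1 had, and 1099 the reverse, as Qk had. These totals include 11109 genes at 0 in all libraries. The kinase Fyn, which acts in local Mbp translation, was at −0.60 (adjusted p = 0.313), and Rtn4, the source of the axon inhibitor Nogo, was at 0.72 (adjusted p = 0.334).

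Neuronal receptors and partners of myelin proteins were counted beside the sheath genes. Of 12 genes 7 were tested, and 0 were called by edgeR and limma-voom (3 at an unadjusted p below 0.05), with 2 called by DESeq2 and a median of 0.19. Cntn2, an axonal adhesion protein, had 224, 169 and 27.9 CPM in WT and 2470, 1551 and 4767 in cKO, a log2 fold change of 4.38 (SE 0.84) that missed the threshold (adjusted p = 0.105). Its groups did not overlap, with every cKO library above every WT library, as in 947 of all 24411 genes. That base includes 11109 genes at 0 in all libraries, and the share among tested genes is not given here. Cntn1, a relative of Cntn2, was at −1.37 (adjusted p = 0.384), and the receptor Lrp1 at −0.52 (adjusted p = 0.761).

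Markers of other cells were read in the same libraries. Of 12 neuronal markers 10 were tested and 1 was higher. This was Neurod2, a factor of cortical excitatory neurons, with 0 counts in WT and 1973, 1996 and 1470 in cKO (adjusted p = 0.00664). It passed the filter on low counts through cKO alone, and over all genes 29 of 5918 were called higher. The summed neuronal level was 5979 to 6985 CPM in WT and 11200 to 14410 in cKO. Of 12 astrocyte markers 9 were tested and 3 passed, Aldoc at a log2 fold change of −4.59, the lipid carrier Apoe at −1.57 and Fabp7 at −1.70. The summed astrocyte level was 13930 to 16580 CPM in WT and 4641 to 5135 in cKO. For microglia it was 209 to 683 and 121 to 430 CPM, with overlap, and for endothelial and mural cells 184 to 277 and 55.2 to 105 CPM. EdgeR and limma-voom called 0 genes of either of the last lists (0 and 5 at an unadjusted p below 0.05), and DESeq2 called 0 and 2. The part of these shifts in the values of the 7 genes was not tested.

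**Figure D4:**
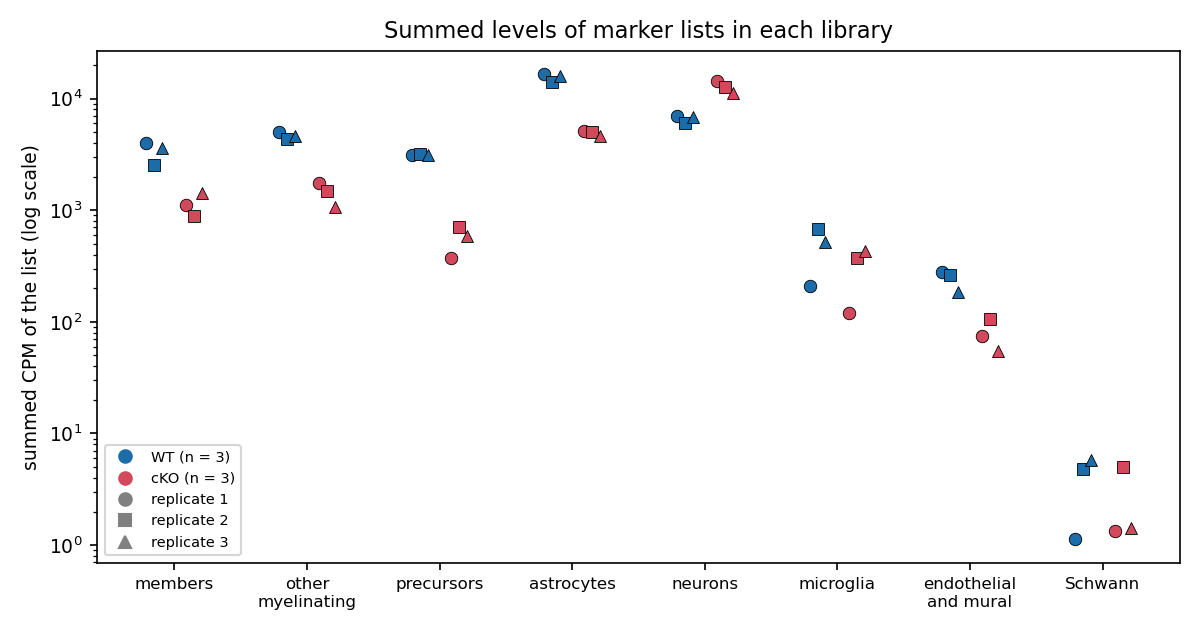
Summed CPM of each gene list in each library, on a log axis; blue points are WT, red points cKO and the shape gives the replicate number. The lists of the 7 sheath genes, other myelinating, precursor, astrocyte and vessel genes are lower in all cKO libraries, the neuronal list is higher, and the microglial and Schwann cell lists overlap.

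Over the 6 libraries, the patterns most like the summed level of the 6 genes other than Gpm6b included Col9a3 (Pearson r = 0.9966 on log2(CPM + 1)) and Ndrg2 (0.9952), among 5301 genes with a mean of at least 20 CPM. Col9a3, a collagen chain, was at 481, 426 and 437 CPM in WT and 83.4, 59.1 and 62.2 in cKO. Ndrg2, a gene of astrocytes, was at 1457, 1097 and 1128 CPM in WT and 387, 282 and 348 in cKO. Gpm6b had other neighbours, Rpa1, a subunit of the single-strand DNA binding complex (0.9892), the mitochondrial citrate carrier Slc25a1 (0.988) and the RNA-binding protein Hnrnpd (0.9847). These values rest on 6 libraries in separate groups and describe likeness only.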

How the data were processed

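RNA of 3 WT and 3 cKO libraries was analysed, grouped by the sample titles. Per the submitters' processing notes, STAR 2.7.10b and RSEM 1.3.3 were used with mm10; neither annotation release nor strand setting is given in these sources, and the kit does not mark strand. The authors deposited 1 RSEM table per library. Expected counts in the deposited tables are estimated fragments per transcript. Deposited TPM is scaled to length and library total, and FPKM, per the file headers, was not used. IsoPct, per the file headers, is each transcript's percent of its gene and was read but not tested. Effective lengths and other deposited columns gave fragment length.

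Counts were added up over the transcripts of each gene and rounded. EdgeR 4.0.16 in R 4.3.3 (quasi-likelihood, TMM, filterByExpr with a minimum count of 10) compared cKO with WT over 6 libraries, with Benjamini-Hochberg adjustment over all genes or transcripts tested; it was first tested on simulated data. SE was worked back from the F statistic. Where cKO was at 0, a fold is a bound at 3 counts over the group; with few counts, pooled ratios have exact 95% intervals, which cover counting error only. One count is 0.803 to 1.41 CPM. Transcript structures came from GENCODE M21 and RefSeq.

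The members and the 9 other gene lists were chosen with earlier results of these data known. Named are all members, up to 4 tested genes per list with the smallest p, and the 3 genes with the most similar pattern; other list genes were named after their values were seen. A gene that the rule takes is not reported here. Tried as alternatives were other scalings (RLE, upper quartile), filters and thresholds, DESeq2 1.42.0, limma 3.58.1 (voom, and log2(TPM + 1) or log2(TPM + 0.1)), unrounded counts, a replicate block, and leaving out libraries; a term for replicate 2 and the Gpm6b classes were added after seeing the data.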

Additional observations from a re-analysis of the deposited data

How the results depend on the processing

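Mbp, Cnp and Gpm6b were negative in each of the 18 alternatives run. The number of genes called lower was 25 with edgeR. It was 10 without a filter and 10 with a filter of 1 CPM in 3 libraries, 179 with DESeq2, 2 at an adjusted p below 0.01, 8 with replicate 2 as a term, and 0 to 14 when each library was left out in turn. Of the members 2 were lower; 0 were at an adjusted p below 0.01, 1 with replicate 2 as a term, and 0 to 1 with a library left out. Without both replicate 2 libraries, 0 genes and 0 members were called (351 and 3 at an unadjusted p below 0.05). Of transcripts 28 were lower, and 4 without a filter, 4 with 1 CPM in 3 libraries, 147 with DESeq2, 1 with limma-voom, 0 with replicate 2 as a term (360 at an unadjusted p below 0.05), 0 without both replicate 2 libraries (309), and 0 to 2 with a library left out. Of member transcripts 3 were lower, 8 with DESeq2, and 0 without a filter, with 1 CPM in 3 libraries, with limma-voom, with replicate 2 as a term, without both replicate 2 libraries or with any library left out (0 to 0), where 9 to 15 had an unadjusted p below 0.05. The causes were not tested.

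The labels do not say whether the replicate numbers pair the libraries. Deviations from the group means correlated at 0.05, 0.456 and 0.155 between same-numbered libraries, and not every library correlated best with its own number. With the replicate block, edgeR called 0 genes lower and 0 members (343 and 3 at an unadjusted p below 0.05), and 0 transcripts and 0 member transcripts (266 and 9).

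NM_001177955 turned positive without both replicate 2 libraries (log2 fold change 0.68), and its range with a library left out was −1.15 to 0.53. NM_023122 turned positive with limma-voom (1.78), the replicate block (1.36) and replicate 2 as a term (1.07), and was −0.64 to 1.64 with a library left out. The share of NM_001177955 was −3.87 to 3.49 percentage points in cKO minus WT with a library left out. The excess of Gpm6b over the other 6 genes was 6.75 with a pseudocount of 5 CPM against 7.72. The share of exon-skipping Gpm6b forms was 25.1 points higher in cKO, 26.4 by TPM and 22.1 to 27.5 with a library left out. The median of all tested genes was 0.07 with TMM and −0.22 with upper-quartile scaling. Depth limits Mag, Mog, Mobp and Cldn11, which lay near or under the floor of 3 counts in at least 1 library.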

Other observations

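The letters GGACT, the commonest form of the sequence in which m6A is written, differed in density among the sheath transcripts. Per 1000 bases of annotated transcript, the Mbp forms held 0.417 to 2.6, with the most counted form, NM_001025259, at 2.6 and the upstream form NM_010777 at 2.01. The lowest was NM_001025245, at 0 counts in every library, and NM_001025251 (1.57) was matched to an annotated transcript of only 638 bases. Cldn11 and Mag held 0, Cnp 0.424, the Gpm6b forms 0.304 to 0.446 and Mog 1.17. The median over 28797 coding transcripts was 1.04, and 87.6% held at least 1 such run. Mobp, which was at 0 counts in every library, held 1.95 to 2.43. Methylation was not measured here.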
